A study of Sus scrofa with 6 samples.

Results

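The genes described here belong to the sterol sensor of the cell or lie close to it. The sensor is built from the transcription factors SREBF1 and SREBF2, their escort SCAP, the protease MBTPS1 and the retention proteins INSIG1 and INSIG2. The sterol carrier STARD4 and the ubiquitin ligase MYLIP complete the set. These 8 genes were chosen by name, and all 8 had a row among the 35670 genes of the deposited count table. The data are counts of polyadenylated RNA from the oviduct ampulla of female pigs (Sus scrofa), with 3 libraries from the early luteal stage, when corpora lutea form and progesterone increases, and 3 from the post-ovulatory stage, after the eggs are released. The ampulla, the wide middle stretch of the oviduct, is where sperm meet the eggs. No treatment or genotype is named for either group, and the breed and age of the animals, the days after ovulation and the number of animals behind each group are unknown from the sources used here. Nothing states that replicates are separate animals, and the p-values therefore rest on a spread between samples that may be technical.

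SREBF1 and SREBF2 encode precursors of the transcription factors SREBP-1 and SREBP-2, which sit in the membrane of the endoplasmic reticulum bound to SCAP. When membrane cholesterol is plentiful, SCAP binds an INSIG protein and the complex stays in place; when cholesterol is low, SCAP carries the precursor in COPII vesicles to the Golgi, where MBTPS1 (the site-1 protease) makes the first of the pair of cuts that free the active factor. The freed factor enters the nucleus and raises transcription of enzymes of sterol and fatty acid synthesis and of genes of its own circuit, INSIG1 and STARD4 among them. INSIG2 is the less sterol-responsive of the INSIG pair, and MYLIP, which marks lipoprotein receptors for degradation, is induced by the sterol-activated LXR receptors and stands on the opposite side of the balance.

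Depth and library makeup bear on all values that follow, which are given as CPM (counts per 1e6 of the TMM-scaled library total). Library totals ran from 8342520 to 14785020 counts in early luteal and from 7370723 to 30954222 in post-ovulatory tissue, and a count of 3, taken as the floor, corresponded to 0.405 CPM at most. Early luteal replicate 2 stood apart from all other libraries on the first principal component (176, against -51.0 to 2.39 for the other 5), which held 55.9% of the variance. Summed stromal markers were lower in early luteal libraries (786 to 1081 CPM) than in post-ovulatory ones (1233 to 2634 CPM), with 9 of 10 genes lower. Secretory epithelial markers summed to 2875 to 4490 CPM in early luteal and 1945 to 13106 CPM in post-ovulatory libraries. By gene, 5 of 8 were higher in early luteal tissue, with a median log2 fold change of 0.21. OVGP1, their most variable member, stood at 156 CPM in post-ovulatory replicate 2 and at 7283 and 10661 CPM in post-ovulatory replicates 1 and 3. Markers of ciliated cells summed to 1332 to 1684 CPM in early luteal and 1156 to 2321 CPM in post-ovulatory libraries. Among 10 measured markers of cumulus, granulosa and luteal cells, which use much cholesterol, FSHR had no count in any library, CYP11A1, CYP17A1 and HAS2 had at most 3 counts in every library, and the list summed to 41.4 to 200 CPM in early luteal and 38.4 to 57.8 CPM in post-ovulatory libraries. PTX3 alone ran from 3.15 to 141 CPM in the early luteal libraries. Of the other lists, smooth muscle markers were higher in early luteal tissue in 6 of 6 genes (sums of 1570, 8726 and 11697 CPM in early luteal replicates 1, 2 and 3, against 3628 to 6747 CPM in post-ovulatory libraries), and genes of the immediate early class, known to react to handling of tissue, in 7 of 8 (364 to 1552 against 275 to 815 CPM). Macrophage markers were lower in 7 of 7 genes (54.5 to 150.2 against 83.7 to 165 CPM). T and NK cell markers were lower in 7 of 8 rows (17.2 to 82.7 against 33.3 to 68.9 CPM), of which GZMA held 2, both lower. Endothelial markers were lower in early luteal tissue in 4 of 6 genes (sums of 381 to 550 against 344 to 539 CPM). PLVAP and FLT1 were lower without overlap of the stages (log2 fold changes -1.52 and -1.58, edgeR adjusted p = 0.677 and 0.664). EMCN was higher without overlap (0.54, edgeR adjusted p = 0.724), and 17.2% of all tested genes did not overlap. None of the genes in these lists passed in edgeR. DESeq2 called 2 of the 10 stromal markers, both lower in early luteal tissue, against 0.986% of all genes, and none in the other lists. They were COL1A1 (DESeq2 log2 fold change -1.96, adjusted p = 0.00728) and PI16 (DESeq2 log2 fold change -2.76, adjusted p = 0.0322). The part that tissue makeup had in the results below was not tested. Bulk tissue cannot tell fewer cells of a type from less RNA per cell.

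The 8 genes had no common direction. INSIG1 and STARD4, both known to be induced by the SREBP factors, stood lower in early luteal tissue, at 12.7 ± 3.86 and 3.36 ± 0.842 CPM (SD, n = 3), against 42.8 ± 9.44 and 17.3 ± 8.55 CPM in post-ovulatory tissue. SREBF2 was lower in all 3 early luteal libraries as well. INSIG2 and MYLIP lay the other way, with all 3 early luteal libraries above all 3 post-ovulatory ones, while SREBF1, SCAP and MBTPS1 overlapped between the stages. In edgeR's quasi-likelihood test none of the 8 passed a Benjamini-Hochberg adjusted p of 0.05 over all tested genes, where 0% of 17920 genes passed (lowest adjusted p = 0.108). DESeq2 called INSIG1 and STARD4, both lower in early luteal tissue, where it called 0.986% of the 17740 genes to which it gave an adjusted p. Limma voom with sample quality weights called none of the 8 and 0.0502% of all tested genes. The stages did not overlap in 5 of the 8 genes, against 17.2% of all tested genes: 3 were lower in early luteal tissue, against 9.57%, and 2 higher, against 7.61%. An unadjusted edgeR p under 0.05 was found for 4 of the 8, against 7.11%, of which 2 were lower, against 3.54%, and 2 higher, against 3.57%. These counts describe genes that were chosen with earlier results of these data known.

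**Figure D1:**
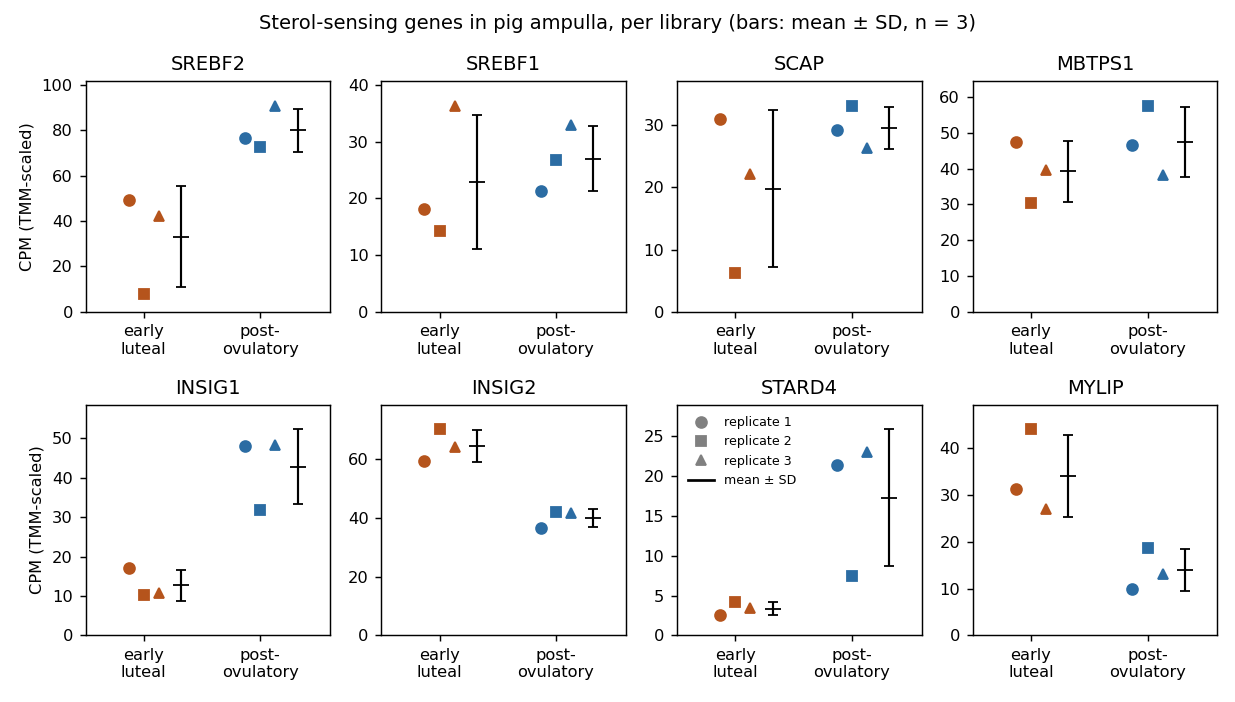
CPM of each of the 8 genes (vertical axes, TMM-scaled, each from 0) in the 3 early luteal libraries (orange) and the 3 post-ovulatory libraries (blue); marker shape gives the replicate and black bars the mean ± SD. INSIG1, STARD4 and SREBF2 are lower in every early luteal library, INSIG2 and MYLIP are higher in every one, and early luteal replicate 2 (square) lies far below its stage in SREBF2 and SCAP.

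SREBF2 (ENSSSCG00000026092; Sscrofa11.1 chr5:6719484-6784724) encodes SREBP-2, the main activator of sterol synthesis. It stood at 49.4, 7.84 and 42.0 CPM in early luteal replicates 1, 2 and 3, against 76.8, 72.8 and 90.9 CPM in post-ovulatory replicates 1, 2 and 3. The stages did not overlap, and early luteal replicate 2 lay far below replicates 1 and 3 of its own stage. The log2 fold change, early luteal over post-ovulatory, was -1.27 ± 0.56 (SE; 95% interval -2.56 to 0.021; edgeR adjusted p = 0.685, unadjusted p = 0.0530). Without early luteal replicate 2 it was -0.81, with a lower unadjusted p (0.00602; adjusted p = 0.586, edgeR), so the size of the difference depended on that library and its direction did not. Only 58 reads stood behind the value of replicate 2, which gives a counting interval of 5.95 to 10.1 CPM (exact Poisson, 95%, counting error only) and leaves it below every other library.

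SREBF1 (ENSSSCG00000033626; chr12:60733967-60750951) encodes the SREBP-1 forms, of which SREBP-1c drives fatty acid synthesis. Its levels were 18.2, 14.2 and 36.3 CPM in the early luteal replicates, against 21.4, 26.7 and 32.9 CPM in the post-ovulatory replicates. Early luteal replicate 3 was the highest library of all and replicate 2 the lowest, so the spread within the stage covered the whole post-ovulatory range. The fold change was correspondingly uncertain (log2 -0.24 ± 0.41, SE; 95% interval -1.18 to 0.71; edgeR adjusted p = 0.904), moving to 0.0093 when replicate 2 of the early luteal stage was left out and to -0.75 when its replicate 3 was. Within each library, the ratio of SREBF1 to SREBF2 counts was 0.368, 1.81 and 0.864 in early luteal against 0.279, 0.367 and 0.362 in post-ovulatory tissue. The nearest libraries of the stages, early luteal replicate 1 and post-ovulatory replicate 2, had almost the same ratio.

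SCAP (ENSSSCG00000026281; chr13:30253262-30320625), the cholesterol-sensing escort of both precursors, stood at 31.03, 6.22 and 22.2 CPM in the early luteal replicates, against 29.3, 33.1 and 26.3 CPM in the post-ovulatory replicates. Early luteal replicate 1 lay within the post-ovulatory range and replicate 2 far below it, with 46 reads and a counting interval of 4.55 to 8.29 CPM. The log2 fold change was -0.57 ± 0.52 (SE; 95% interval -1.76 to 0.62; edgeR adjusted p = 0.808), and it moved to -0.15 when replicate 2 of the early luteal stage was left out and to -1.04 when its replicate 1 was. SREBF2 and SCAP therefore shared their low point: replicate 2 lay 5.74-fold below the geometric mean of early luteal replicates 1 and 3 in SREBF2 and 4.15-fold below it in SCAP. Such a drop was not rare in that library, since 10.2% of all tested genes were as low or lower than SREBF2 by the same measure and 14.2% as low or lower than SCAP. Taken as a ratio within each library, SREBF2 over SCAP was 1.59, 1.26 and 1.90 in early luteal and 2.62, 2.20 and 3.45 in post-ovulatory tissue. On that scale replicate 2 no longer stood apart, and the stages did not overlap.

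MBTPS1 (ENSSSCG00000002682; chr6:4503530-4558601), the site-1 protease, also processes the stress sensor ATF6. It stood at 47.5, 30.4 and 39.7 CPM in the early luteal replicates, against 46.7, 57.6 and 38.1 CPM in the post-ovulatory replicates. The groups overlapped, with a log2 fold change of -0.27 ± 0.29 (SE; edgeR adjusted p = 0.837). Its 95% interval ran from -0.94 to 0.39, and the fold change lay between -0.42 and -0.12 with each library left out in turn. MBTPS2, the partner protease of the second cut, had no row under its symbol and was not analysed here.

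INSIG1 (ENSSSCG00000016420; chr18:2885494-2898758) retains SCAP in the endoplasmic reticulum and is itself induced by the SREBP factors, which closes a feedback loop. It stood at 17.2, 10.3 and 10.7 CPM in the early luteal replicates, against 48.1, 31.9 and 48.3 CPM in the post-ovulatory replicates. The highest early luteal library lay 14.7 CPM below the lowest post-ovulatory one, and early luteal replicate 2 did not stand apart from replicate 3. The level was 3.36-fold lower in early luteal tissue (log2 fold change -1.75 ± 0.35, SE; 95% interval -2.54 to -0.96). Its unadjusted edgeR p of 0.000844 ranked 29 among the 17920 genes, its edgeR adjusted p was 0.522 and its DESeq2 adjusted p 0.00212. With each library left out in turn the log2 fold change stayed between -2.02 and -1.62.

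INSIG2 (ENSSSCG00000036229; chr15:23676684-23699591) encodes the second retention protein, which holds SCAP in the same way but is not known as an SREBP target. It stood at 59.2, 70.1 and 64.0 CPM in the early luteal replicates, against 36.5, 42.0 and 41.6 CPM in the post-ovulatory replicates. The libraries of each stage lay close together, and 17.3 CPM separated the nearest libraries of the stages. Early luteal tissue had a 1.61-fold higher level (log2 fold change 0.69 ± 0.24, SE; 95% interval 0.15 to 1.22; edgeR adjusted p = 0.674, unadjusted p = 0.0184; DESeq2 adjusted p = 0.281). RefSeq also lists a pseudogene under the symbol INSIG2 on Sscrofa11.1 (chr7:52466406-52467387, inside the span of PDE8A), and how reads shared with it were assigned is unknown.

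The paralogs INSIG1 and INSIG2 thus lay in opposite directions, and their ratio within a library needs no scaling between libraries. The ratio of INSIG1 to INSIG2 counts was 0.290, 0.146 and 0.167 in early luteal replicates 1, 2 and 3, against 1.32, 0.760 and 1.16 in the post-ovulatory replicates. On the log2 scale it averaged -2.38 ± 0.52 in early luteal and 0.072 ± 0.42 in post-ovulatory tissue (SD, n = 3 each), a 5.47-fold lower ratio in early luteal tissue. The difference of -2.45 stayed between -2.75 and -2.26 with each library left out in turn. An exact two-sided permutation test gave p = 0.10, the smallest value that 3 against 3 libraries allow, and 0.165 after Benjamini-Hochberg adjustment over the 28 pairs of members, so no pair could pass. In 17 of the 28 pairs the stages did not overlap, and the pairs other than the paralogs were picked after their values were seen. The counts are not per length, so the ratio says nothing about which of the pair is the more abundant.

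**Figure D2:**
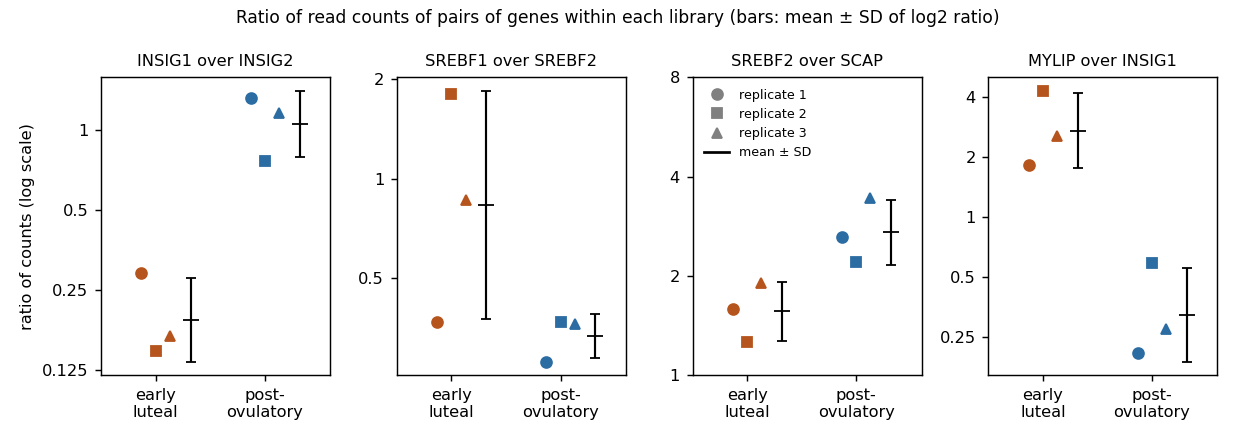
Ratio of read counts for 4 pairs of members within each library (vertical axes, log scale) in early luteal (orange) and post-ovulatory (blue) libraries; marker shape gives the replicate and black bars the mean ± SD of the log2 ratio. INSIG1 over INSIG2 is 0.146 to 0.290 in early luteal and 0.760 to 1.32 in post-ovulatory libraries, and the lowest SREBF1 over SREBF2 ratio of the early luteal stage, 0.368, lies next to the highest post-ovulatory one, 0.367.

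STARD4 (ENSSSCG00000031518; chr2:116235821-116257143) encodes a small soluble protein that moves cholesterol between membranes and is induced by SREBP-2 in mouse cells. It stood at 2.51, 4.19 and 3.38 CPM in the early luteal replicates, against 21.3, 7.43 and 23.0 CPM in the post-ovulatory replicates. All early luteal libraries were low, whereas post-ovulatory replicate 2 lay nearer to them than to the other libraries of its stage. The level was 5.17-fold lower in early luteal tissue, the largest fold change of the 8 genes (log2 -2.37 ± 0.55, SE; 95% interval -3.63 to -1.11; edgeR adjusted p = 0.561, unadjusted p = 0.00230; DESeq2 adjusted p = 0.00375). Its counts were 39, 31 and 51 reads in the early luteal replicates, the lowest of the set there, against 287, 59 and 722 reads in the post-ovulatory replicates. Counting intervals of the nearest libraries overlapped, at 2.85 to 5.95 CPM in early luteal replicate 2 and 5.66 to 9.59 CPM in post-ovulatory replicate 2. RefSeq places the lncRNA LOC102158757 where it overlaps the span of the gene, and whether the counting used the strand is unknown.

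MYLIP (ENSSSCG00000001063; chr7:12117240-12137934), also called IDOL, encodes the ubiquitin ligase that sends lipoprotein receptors to the lysosome. It stood at 31.2, 44.1 and 27.1 CPM in the early luteal replicates, against 10.03, 18.8 and 13.2 CPM in the post-ovulatory replicates. Replicate 2 was the highest library of its stage in both groups, and 8.35 CPM separated the lowest early luteal library from the highest post-ovulatory one. Early luteal tissue had a 2.44-fold higher level (log2 fold change 1.29 ± 0.36, SE; 95% interval 0.45 to 2.12; edgeR adjusted p = 0.632, unadjusted p = 0.00706; DESeq2 adjusted p = 0.0891). With each library left out in turn, the log2 fold change ran from 1.06 (without early luteal replicate 2) to 1.55 (without post-ovulatory replicate 2). Set against INSIG1, the ratio of MYLIP to INSIG1 counts was 1.82, 4.29 and 2.54 in early luteal and 0.208, 0.589 and 0.274 in post-ovulatory tissue, an 8.39-fold higher ratio in early luteal tissue.

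**Figure D3:**
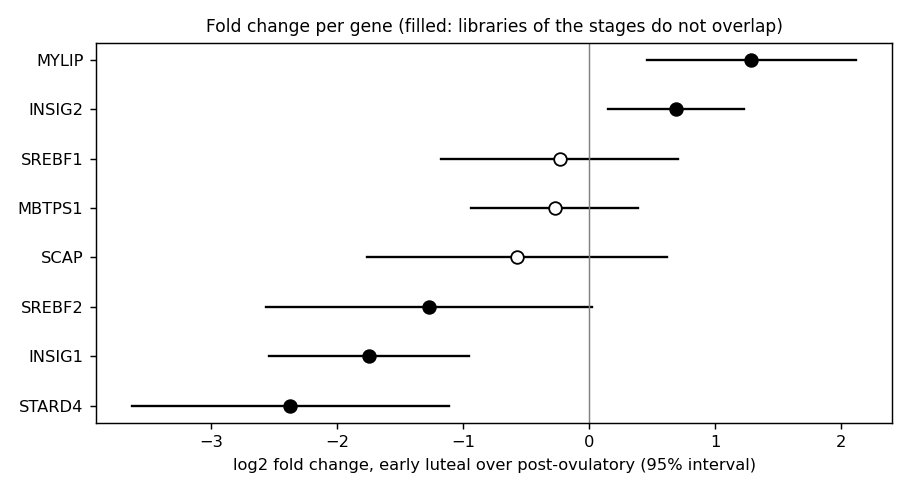
Log2 fold change of each gene, early luteal over post-ovulatory (horizontal axis), with its 95% interval from edgeR; filled points mark genes whose libraries do not overlap between the stages. The intervals of STARD4 and INSIG1 lie below 0 and those of MYLIP and INSIG2 above it, while that of SREBF2 reaches 0.021.

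The 8 profiles over the 6 libraries fell into different shapes. Likeness was measured as the root mean square difference of log2 CPM after each gene was centred on its own mean. A small value means profiles that lie close together, which also holds for genes that vary little. It does not require a shared direction: in early luteal replicate 2, INSIG2 lay 0.47 above its mean and MBTPS1 0.48 below its own. Among the 28 pairs of members, MYLIP and INSIG2 were nearest to each other (0.40), followed by SREBF2 and SCAP (0.47), SREBF1 and MBTPS1 (0.49), INSIG2 and MBTPS1 (0.57) and INSIG1 and STARD4 (0.58). MYLIP and STARD4 were the farthest apart (1.90). INSIG1 lay nearer to STARD4 than to its paralog INSIG2 (1.28), and SREBF2 nearer to SCAP than to its paralog SREBF1 (0.94).

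**Figure D4:**
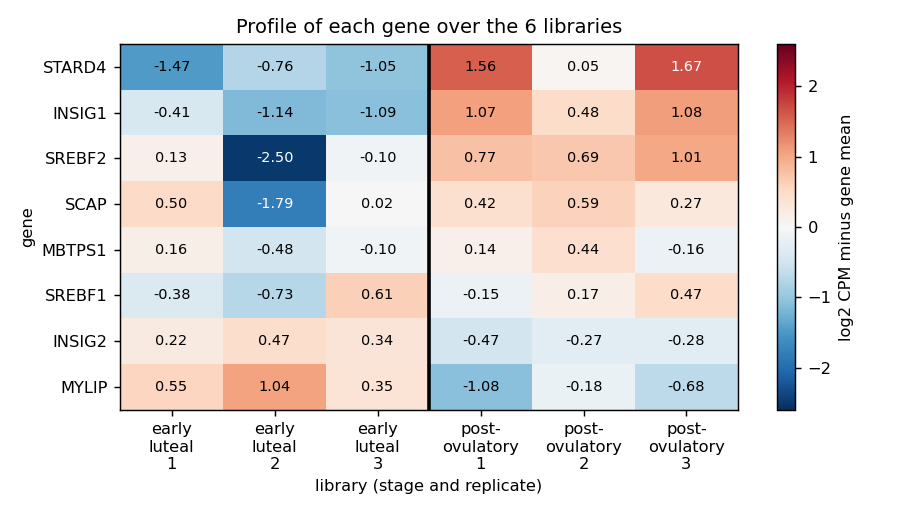
Centred log2 CPM (colour and printed value) of each gene (rows) in each library (columns), early luteal libraries left and post-ovulatory libraries right of the line. STARD4 and INSIG1 are below their mean in all 3 early luteal libraries, INSIG2 and MYLIP above theirs, and the deepest values belong to SREBF2 (-2.50) and SCAP (-1.79) in early luteal replicate 2.

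The same measure was taken against 9355 other genes with a symbol and at least 10 CPM on average. For INSIG1 the nearest were HYOU1 (0.17), PROM2 (0.20) and the sterol synthesis gene CYP51A1 (0.24), against a median of 0.96 over all of them. HYOU1 is a chaperone of the endoplasmic reticulum and averaged 44.4 CPM in the early luteal and 152 CPM in the post-ovulatory libraries. STARD4 was nearest to HMGCS1 (0.29), a sterol synthesis gene, then to the progesterone receptor PGR (0.34) and the paraoxonase PON3 (0.39), with a median of 1.26. MYLIP ran closest to TRIB1 (0.12), PCMTD2 (0.16) and PDK4 (0.17), and INSIG2 to MAP1LC3B (0.084), SAT1 (0.087) and GCDH (0.089). The nearest profiles to SREBF2 were those of TTYH3 (0.16), SNX19 (0.17) and PAK4 (0.17). For SCAP, CTSZ (0.060) and TRIM11 (0.090) were the closest. SREBF1 was nearest to MGAT5 (0.11), and MBTPS1 to PRICKLE1 (0.077). Profiles over 6 libraries share the depth and makeup of each library, and these are descriptions.

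Around the sensor, 8 lists of genes from the same circuit were examined in the same fit. No gene in any of them passed in that edgeR fit, whereas 1 sterol synthesis enzyme passed with no filter on low counts. The medians below stand beside a median log2 fold change of -0.03 over all tested genes, of which 51.8% were below 0. These lists were likewise drawn up with earlier results known.

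Target enzymes of the SREBP factors lay mostly on the side of INSIG1 and STARD4. Of 19 enzymes of sterol synthesis, 17 had a negative fold change, with a list median of -1.34. Their stages did not overlap in 15 genes, all lower in early luteal tissue (9.57% of all tested genes), and DESeq2 called 9, all lower, against 0.986% of all genes. SQLE, the squalene epoxidase, had a log2 fold change of -3.19 ± 0.40 (SE; edgeR adjusted p = 0.216), and HMGCS1 one of -1.96 ± 0.45 (SE; edgeR adjusted p = 0.560); that of INSIG1 lay between 0 and these and that of STARD4 between the pair. Fatty acid enzymes were less uniform: 8 of 13 tested had a negative fold change, with a median of -0.55 (-0.36 without post-ovulatory replicate 1), and DESeq2 called 2, both lower, against 0.986% of all genes. The desaturases FADS1 and FADS2 were those called, at 36.2 ± 14.2 against 93.1 ± 10.2 CPM and at 9.17 ± 4.33 against 30.0 ± 8.03 CPM (early luteal against post-ovulatory, SD, n = 3 each; DESeq2 adjusted p = 0.0269 and 0.0308). ACLY, which supplies cytosolic acetyl-CoA, stood at 40.0 ± 2.73 against 83.7 ± 22.05 CPM, and the stearoyl-CoA desaturase SCD at 48.2 ± 8.34 against 99.3 ± 25.7 CPM. Neither ACLY nor SCD passed in DESeq2 (adjusted p = 0.0772 and 0.116).

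**Figure D5:**
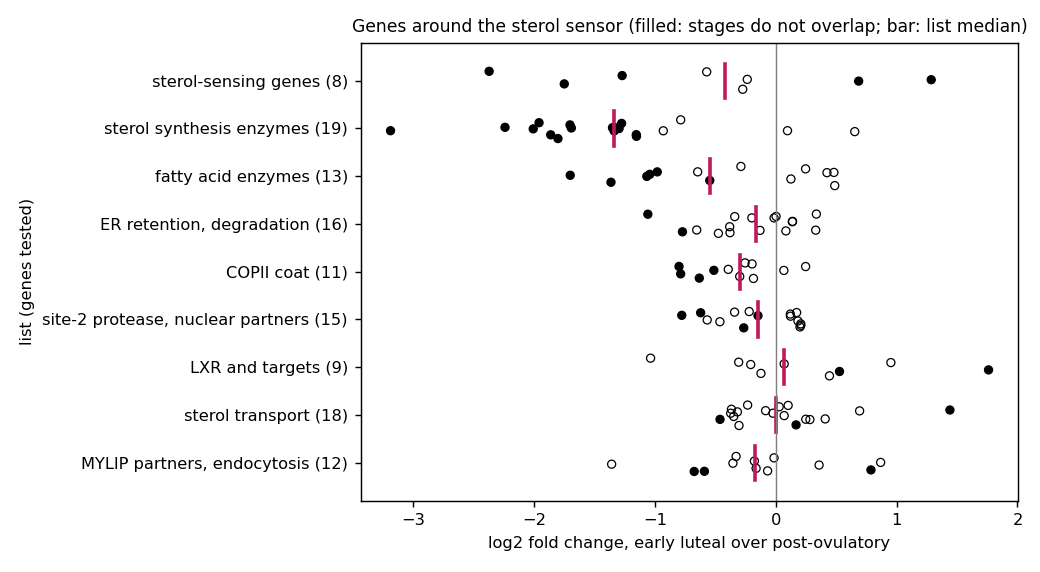
Log2 fold change, early luteal over post-ovulatory (horizontal axis), of every tested gene in the sterol-sensing set and in 8 lists around it (rows, number tested in brackets); filled points mark genes whose libraries do not overlap between the stages and pink bars the list medians. Sterol synthesis enzymes have a median of -1.34, with 15 of 19 genes filled and to the left of 0, whereas the median of sterol transport genes is 0.0029. The row of nuclear partners holds no point for MBTPS2, although its label names that protease.

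The machinery that holds and moves SCAP differed less. Of 16 tested genes of retention and degradation in the endoplasmic reticulum, 10 were lower and 6 higher, with a median of -0.16 (-0.28 without early luteal replicate 3), and 2 did not overlap, both lower, no larger a share than the 17.2% of all tested genes. Those 2 were NSDHL, itself an enzyme of sterol synthesis, at 17.5 ± 5.22 CPM in the early luteal and 36.6 ± 6.34 CPM in the post-ovulatory libraries, and the ATPase VCP, which pulls proteins out of the membrane, at 211 ± 11.8 against 361 ± 147 CPM (edgeR adjusted p = 0.664 and 0.685). UBXN4 and PGRMC1, the most abundant others, had log2 fold changes of 0.0032 and 0.14. Of 11 tested genes of the COPII coat, which packs SCAP into vesicles, 9 were lower, with a median of -0.30 (-0.16 without early luteal replicate 1), and 4 did not overlap, all lower (9.57% of all tested genes). SEC13 averaged 47.9 ± 17.2 CPM in the early luteal and 82.8 ± 18.6 CPM in the post-ovulatory libraries, and SEC23B at 54.5 ± 10.6 against 84.4 ± 21.8 CPM. Among 15 tested nuclear partners and modifiers of the SREBP factors, 8 were lower and 7 higher (median -0.15, and -0.09 without post-ovulatory replicate 3). SP1, which binds beside SREBP at many promoters, stood at 13.2 ± 2.96 against 22.6 ± 0.987 CPM (edgeR adjusted p = 0.685). The more abundant SP3 and EP300 lay slightly the other way, with log2 fold changes of 0.21 and 0.12. Both overlapped between the stages.

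On the LXR side, the list of 9 tested genes was split, with 4 lower, 5 higher and a median of 0.07. That median had no stable sign: it was -0.30 without early luteal replicate 1, 0.42 without early luteal replicate 2 and -0.03 without post-ovulatory replicate 3. ABCA1, the cholesterol exporter and like MYLIP an LXR target, stood at 67.8, 140.3 and 93.7 CPM in the early luteal replicates, against 16.8, 48.1 and 24.3 CPM in the post-ovulatory replicates. Replicate 2 was the highest of its stage in both groups, as in MYLIP, and the stages did not overlap (log2 fold change 1.76 ± 0.45, SE; edgeR adjusted p = 0.594; DESeq2 adjusted p = 0.0362). ABCG1, another exporter under LXR, overlapped between the stages, averaging 62.7 ± 30.2 CPM in the early luteal and 46.1 ± 15.6 CPM in the post-ovulatory libraries. LPCAT3 of the same list lay the other way (log2 fold change -1.04, edgeR adjusted p = 0.736), and APOE was near 0 (0.07, edgeR adjusted p = 0.980). Both overlapped between the stages. RXRA was higher in early luteal tissue without overlap (log2 fold change 0.53, edgeR adjusted p = 0.711). LXR-beta itself, encoded by NR1H2, stood at 27.4 ± 14.4 against 29.9 ± 5.99 CPM, and LXR-alpha, encoded by NR1H3, at 19.8 ± 13.3 against 23.0 ± 4.27 CPM. NR1H2 and NR1H3 were named after their values were seen.

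Other carriers of sterol had no common direction. Among 18 tested genes of sterol transport inside the cell, 9 were lower and 9 higher, with a median of 0.0029 (-0.22 without early luteal replicate 1). GRAMD1C, which brings cholesterol from the plasma membrane to the endoplasmic reticulum, stood at 33.9, 63.4 and 35.6 CPM in the early luteal replicates, against 13.1, 14.5 and 21.2 CPM in the post-ovulatory replicates. Its stages did not overlap (log2 fold change 1.44 ± 0.37, SE; edgeR adjusted p = 0.594; DESeq2 adjusted p = 0.0524). OSBP, which exchanges sterol for a phosphoinositide at the Golgi, stood at 38.1 ± 5.72 against 52.5 ± 3.74 CPM, and STARD5, a relative of STARD4 named after its values were seen, at 6.17 ± 1.80 against 6.54 ± 1.72 CPM.

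Of 12 partners of MYLIP and genes of receptor uptake, 9 were lower and 3 higher, with a median of -0.17 (-0.28 without early luteal replicate 3, -0.10 without early luteal replicate 2 or post-ovulatory replicate 1), and none had an unadjusted edgeR p under 0.05. UBE2D1, a ubiquitin-conjugating enzyme that works with MYLIP, averaged 31.5 ± 12.9 CPM in the early luteal and 18.2 ± 1.38 CPM in the post-ovulatory libraries (edgeR adjusted p = 0.685). The lipoprotein receptors VLDLR and LRP8 are substrates of MYLIP. LRP8 was scarce, at 1.88 ± 1.37 against 4.92 ± 3.01 CPM, and VLDLR, named after its values were seen, stood at 40.8 ± 21.6 against 22.4 ± 12.6 CPM. Both overlapped between the stages.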

How the data were processed

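Ampulla tissue of pigs was sampled as 3 early luteal and 3 post-ovulatory libraries. Per the labels' protocols, a KAPA kit gave stranded mRNA libraries for paired reads on a NextSeq2000. FastQC 0.11.4, Trim Galore, STAR and the build Sscrofa11.1 were used, per the submitters' processing notes; counting tool, strand setting and annotation: not given in the sources used here. The authors deposited whole-number counts per Ensembl gene, with no normalization. Since the header lacks a tab, its words were assigned to columns in order; the one for replicate 3 of the early luteal stage misses a letter and matches no other sample.

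Symbols (15623 of 35670 genes) came from a table of Ensembl identifiers, and gene positions from RefSeq on Sscrofa11.1, matched by symbol for all 8 members. CPM used library totals with TMM factors. The test was edgeR 4.0.16 (R 4.3.3; quasi-likelihood, robust, filterByExpr, 17920 genes, two-sided, Benjamini-Hochberg over all of them, threshold 0.05), tested on simulated data first. Each SE is the size of the log2 fold change divided by the root of its F statistic. DESeq2 1.42.0, limma 3.58.1 voom, other scalings and filters, a replicate block and each library left out in turn were alternatives. Log2 CPM used a prior count of 2. The members, lists and tests were chosen with earlier results of these data known. Named genes are all members, up to 3 lowest p and 2 other most abundant genes of a list, and the 3 nearest profiles; 1 of these is not reported here. No sequences are shown, promoter motifs were not examined, and no 2 libraries held identical columns.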

Additional observations from a re-analysis of the deposited data

How the results depend on the processing

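Direction held for 7 of the 8 genes in all 15 alternatives; SREBF1 reversed without early luteal replicate 2 (log2 fold change 0.0093, edgeR adjusted p = 0.995; -0.75 to 0.0093 with each library left out in turn; the cause was not tested). The count of members past the threshold was 0 in edgeR under every scaling, filter and left-out library, in limma voom and in limma voom with sample quality weights, and 2 in DESeq2 (INSIG1 and STARD4). Over all genes the count was 0 in edgeR and 8 in edgeR with no filter on low counts, 1 of them a sterol synthesis enzyme. It was 175 in DESeq2, 0 in limma voom and 9 in limma voom with sample quality weights. At an unadjusted p under 0.05 edgeR counted 1275 genes. With each library left out in turn the count past the threshold was 0 for all genes and 0 for the members throughout. Over the 15 alternatives the adjusted p ran from 0.00212 to 0.985 for INSIG1 and from 0.00375 to 0.985 for STARD4. Same-numbered libraries showed little common deviation (r across genes of 0.052, -0.082 and 0.13). With only 3 libraries per stage, this check cannot tell whether they shared an animal or a batch. With the replicate number as a block, edgeR counted 0 genes and 0 members (1043 genes and 5 members at an unadjusted p under 0.05). Early luteal replicate 3 correlated best with its own number (0.13), replicate 1 with post-ovulatory replicate 2 (0.057) and replicate 2 with post-ovulatory replicate 1 (0.061). With sample quality weights the median of the LXR list was 0.48 and that of the fatty acid enzymes -0.30. No alternative scaling moved the median of all genes by 0.1. Depth limits STARD4 most, with 31 to 51 reads per early luteal library, against 59 to 722 in post-ovulatory ones.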
